A study of Mus musculus with 12 samples.

Results

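Interferon-stimulated genes are the genes that cells switch on when type I or type II interferon reaches its receptor. The 41 genes described here are 30 of the type I response, 8 interferon-inducible GTPases of the IRG and GBP families and 3 genes of antigen processing, taken from a list of names with the Ifi200 family left out. Of these, 37 had a value, from 242 of the 105661 probe sets, among 14179 genes in all: 27 type I genes, 7 GTPases and 3 antigen processing genes. The signals of Isg15, Ifit1, Ifit3 and Tgtp1 are not analysed here, but their promoter windows are among those counted below. The RNA came from granulocyte-monocyte precursors (GMPs), the bone marrow progenitors of neutrophils and monocytes, sorted from C57BL/6 mice of 4 genotypes and hybridised to 12 Affymetrix Mouse Gene 1.0 ST arrays, 3 per genotype. WT mice carried the unchanged mouse Gfi1, KO mice a knock-out of Gfi1, and both knock-ins human GFI1, wtKI mice its common form and SNP mice its variant form. GFI1, which binds DNA through zinc fingers, represses transcription during blood cell formation, and the study looked for genes that differ with the variant form in relation to acute myeloid leukaemia. No label ties an array to a mouse of its own, and the spread behind each p-value, which is that between samples, may therefore be technical.

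Type I interferon signals through JAK kinases to a complex that holds STAT2 and IRF9 and binds the interferon-stimulated response element (ISRE), while the response to interferon gamma runs through the gamma-activated site (GAS). The genes switched on include RNA sensors, transcription factors that extend the response, antiviral effectors and the negative regulator Usp18. The IRG and GBP GTPases are induced most strongly by interferon gamma and act on the membranes around intracellular parasites and bacteria, and Tap1, Psmb8 and Psmb9 make and carry the peptides shown on MHC class I.

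The following stretches, 90 bases each and upstream of the annotated start, are shown because they carry the ISRE or GAS letters that set the GTPases beside the other classes. They are RefSeq promoter sequences of the GRCm38.p6 assembly, written 5′ to 3′ on the strand of the gene, and capitals mark every match, on either strand, to GAAA, any 2 bases and GAAA again (ISRE) or to TTCNNNGAA (GAS), which can overlap. Irgm1 lies at chr11:48871421-48871510 on the minus strand, and Irgm2 (chr11:58214867-58214956), Igtp (chr11:58199466-58199555), Gbp2 (chr3:142620564-142620653), Gbp3 (chr3:142559954-142560043), Stat2 (chr10:128270248-128270337) and Psmb8 (chr17:34198057-34198146) lie on the plus strand. Rsad2 is at chr12:26456523-26456612 on the minus strand.
Irgm1: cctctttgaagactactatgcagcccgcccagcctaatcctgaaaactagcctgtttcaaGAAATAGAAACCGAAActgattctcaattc
Irgm2: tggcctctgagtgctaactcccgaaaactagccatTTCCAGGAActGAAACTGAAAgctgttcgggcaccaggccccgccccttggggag
Igtp: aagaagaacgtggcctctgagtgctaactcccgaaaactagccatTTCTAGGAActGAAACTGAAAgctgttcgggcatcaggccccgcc
Gbp2: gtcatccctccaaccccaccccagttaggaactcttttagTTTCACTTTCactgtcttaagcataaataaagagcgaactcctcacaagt
Gbp3: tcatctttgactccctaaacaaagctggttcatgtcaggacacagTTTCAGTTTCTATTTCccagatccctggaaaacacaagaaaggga
Stat2: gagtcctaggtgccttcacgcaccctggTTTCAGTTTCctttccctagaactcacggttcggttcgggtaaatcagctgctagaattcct
Rsad2: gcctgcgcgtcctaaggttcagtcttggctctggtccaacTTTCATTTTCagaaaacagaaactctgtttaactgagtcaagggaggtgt
Psmb8: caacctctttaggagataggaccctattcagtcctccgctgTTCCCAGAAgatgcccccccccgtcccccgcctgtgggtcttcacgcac
Irgm2 and Igtp hold the GAS and the ISRE letters side by side, and 78 of the 80 bases in which their stretches align are identical.

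Promoter windows of 300 bases, from 250 before to 50 after the start, were in the table for 33 of the 41 listed genes. The ISRE letters were in all 6 GTPase windows, in 11 of 24 type I windows and in 0 of 3 antigen processing windows, and in 3.99% of the 27025 genes with a window. The GAS letters were in 3 of 6, 7 of 24 and 1 of 3 windows, against 9.55% of genes. Iigp1 is not among the genes with a window. A match is a string of letters and not a measured binding site.

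KO 1 and SNP 1 stood apart from the rest before any group was compared. Over all probe sets, their median correlations with the other arrays were 0.70 and 0.633, and those of the remaining arrays began at 0.836. Probe sets of one gene scattered by 0.664 and 0.674 (log2) on these arrays and by at most 0.424 on any other. The GMP markers fitted the label on most arrays: Mpo, the myeloperoxidase of early granules, lay between 11.26 and 11.55 everywhere except SNP 1, where it was 10.81. Kit, the stem cell factor receptor of progenitors, was 7.79 on KO 1 and 6.86 on SNP 1 and lay between 8.32 and 9.27 elsewhere. Genes of late neutrophils, erythroid cells and B cells were high on SNP 1, as given with the results they touch. Gfi1 itself lay between 5.59 and 6.29 on the WT arrays and between 6.43 and 6.74 on the KO arrays. Which exons its probe sets read is not given in the sources used here, so its level checks nothing about the knock-out. Y-linked genes were low on WT 3, wtKI 2 and wtKI 3, so KO and SNP held only male samples.

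No member passed a limma adjusted p of 0.05 in any comparison, and values for single members below are given on that footing. KO minus WT, wtKI minus WT and SNP minus WT share the WT arrays, and SNP minus WT and SNP minus wtKI share the SNP arrays. The limma test called 1 gene of 14179 in KO minus WT, in wtKI minus WT and in SNP minus wtKI, 0.00705% of the genes each, and 0% in SNP minus WT, where 2085 genes had an unadjusted p under 0.05. That share was 14.7% of all genes in SNP minus WT, and 5 of 37 members (13.5%) were among them. In SNP minus wtKI, 8 members (21.6%) were under an unadjusted 0.05 beside 8.91% of all genes. In both KO minus WT and wtKI minus WT, 2 members (5.4%) were, beside 4.8% and 3.27%. Without KO 1 and SNP 1, the members under an unadjusted 0.05 numbered 3 (8.1%) in KO minus WT beside 6.56% of all genes, 8 (21.6%) in wtKI minus WT beside 7.31%, 3 (8.1%) in SNP minus WT beside 14.4% and 5 (13.5%) in SNP minus wtKI beside 8.32%.

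The type I and GTPase medians were higher in SNP than in WT and in wtKI, and the antigen processing median was lower. The type I median difference was 0.06 in KO minus WT (log2, 15 of 27 higher) and -0.06 in wtKI minus WT (11 of 27 higher), where the median of all genes was -0.02 and -0.01. It was 0.27 in SNP minus WT (19 of 27 higher) and 0.35 in SNP minus wtKI (18 of 27 higher), with all genes at -0.01 and -0.02. Of all genes, 47.3%, 48.8%, 49% and 47.8% were higher in KO minus WT, wtKI minus WT, SNP minus WT and SNP minus wtKI. The GTPase medians in the same order were -0.12 (3 of 7 higher), -0.01 (3 of 7), 0.11 (5 of 7) and 0.30 (5 of 7). Those of antigen processing were 0.15 (2 of 3 higher), -0.07 (1 of 3), -0.32 (1 of 3) and -0.22 (0 of 3). In a bulk sample, fewer cells of one kind and less RNA per cell cannot be told apart.

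The SNP arrays did not share these shifts evenly. Set against the WT mean, the type I median was 1.06 on SNP 1 and -0.09 and -0.17 on SNP 2 and SNP 3, while the WT arrays ran from -0.23 to 0.20. The GTPase median was 1.01 on SNP 1 and -0.38 and -0.02 on SNP 2 and SNP 3, with WT arrays between -0.53 and 0.24. Both classes were high on one SNP array and within the WT range on the others. Without KO 1 and SNP 1, the SNP minus WT medians were -0.14 for type I genes (10 of 27 higher), -0.05 for GTPases (3 of 7) and -0.19 for antigen processing genes (0 of 3). SNP minus wtKI then gave -0.04 for type I genes (10 of 27 higher), while the GTPase median kept its sign at 0.23 (4 of 7), and KO minus WT gave -0.05 (11 of 27) and 0.17 (7 of 7). Of all genes, 49.4%, 49.7% and 47.5% were higher in these 3 comparisons. The KO medians lay near 0, and their sign changed when KO 1 alone was left out.

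**Figure D1:**
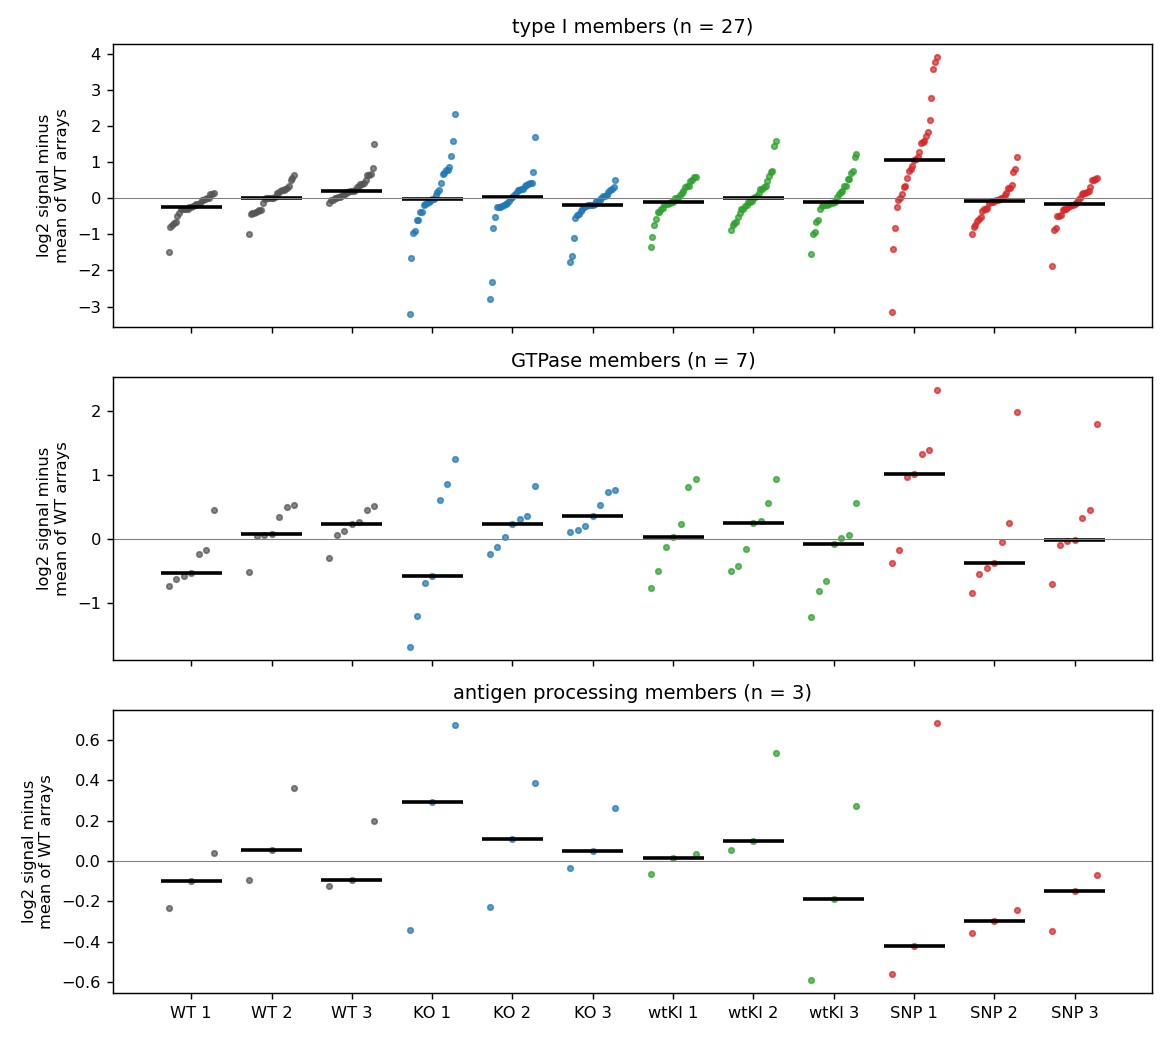
Log2 signal of each member minus its mean over the WT arrays (vertical axis) on each of the 12 arrays (horizontal axis), for type I genes, GTPases and antigen processing genes. Each point is a gene and the black bar is the class median: on SNP 1 the type I and GTPase bars stand at 1.06 and 1.01, and on the other 11 arrays the type I bar stays between -0.23 and 0.20.

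Iigp1, a GTPase of the IRG family that is recruited to the vacuoles of parasites, did not depend on SNP 1. Its signal was 6.02, 6.79 and 5.97 in WT and 7.52, 7.09 and 7.03 in KO. It was 7.08, 7.19 and 6.83 in wtKI and 8.59, 8.25 and 8.06 in SNP. Every KO, wtKI and SNP array lay above every WT array, and every SNP array above every array of the other genotypes.

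The largest Iigp1 difference was SNP minus WT, 2.03 ± 0.26 (SE, n = 3 per group), or 4.10-fold. Its unadjusted p was the smallest of all 14179 genes, and its limma adjusted p of 0.0652 missed the threshold of 0.05. That adjusted p ranged from 0.0138 to 0.345 over the 23 alternatives run, and passed with array weights (0.0138), without WT 2 (0.0160), after quantile normalization (0.0472) and without the dimmest 30% of genes (0.0497). Without KO 1 and SNP 1 the difference was 1.89 ± 0.26 (limma adjusted p = 0.113), and with sex as a term it was 1.95 (limma adjusted p = 0.220). KO minus WT was 0.95 ± 0.26 (limma adjusted p = 0.628) and wtKI minus WT 0.77 ± 0.26 (limma adjusted p = 0.9998). SNP minus wtKI, the difference between the variant and the common human form, was 1.26 ± 0.26 (limma adjusted p = 0.414). The gene rests on 1 probe set, so no second probe set could be set beside it.

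Markers of other cells are given beside Iigp1 for the SNP arrays that did not stand apart. On SNP 2 and SNP 3, where Iigp1 was 8.25 and 8.06, the late neutrophil markers had medians of -0.28 and 0.13 against WT, the erythroid markers 0.24 and 0.21 and the B lineage markers 0.08 and 0.40. The markers of plasmacytoid dendritic cells, which make type I interferon, had medians of 0.28 and 0.55 there and between -0.19 and 0.18 on the WT arrays, with 4 of 5 higher in SNP. In KO minus WT, 4 of these 5 markers were also higher, with a median of 0.34 beside 0.32 in SNP minus WT. Their medians were 0.83, -0.04 and 0.005 on KO 1 to KO 3, and 0.18, -0.06 and 0.30 on the wtKI arrays. Siglech, a lectin of these cells, was 8.72, 7.25 and 5.03 on SNP 1 to SNP 3 and between 3.90 and 4.71 on the WT arrays. However, it was under the 5th percentile of all probe sets on SNP 3 and on every WT array, and wtKI 3 was at 6.07. Tcf4, the transcription factor of that lineage, went the other way, at 6.74, 7.23 and 6.90 in SNP and 7.90, 7.60 and 7.47 in WT. The part of such cells in the Iigp1 difference was not tested.

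**Figure D2:**
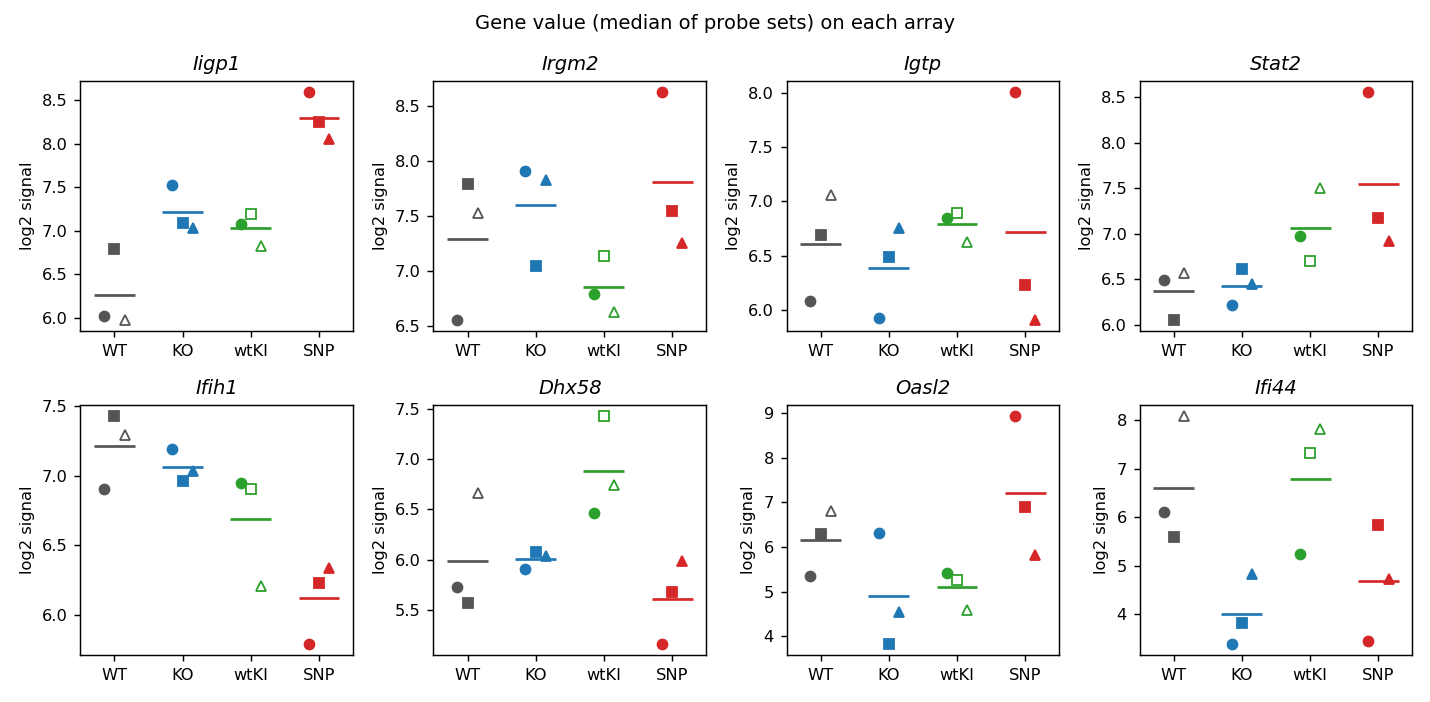
Log2 signal of 8 members on each array (vertical axis) by genotype (horizontal axis). Circles, squares and triangles are replicates 1, 2 and 3, open symbols are arrays with low Y-linked genes, and bars are group means: Iigp1 lies between 5.97 and 6.79 in WT and between 8.06 and 8.59 in SNP, while Igtp is high on SNP 1 alone.

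The other GTPases did not follow Iigp1. Irgm2, a regulatory IRG protein, was 6.56, 7.79 and 7.53 in WT, 7.91, 7.05 and 7.83 in KO, 6.79, 7.14 and 6.63 in wtKI and 8.62, 7.54 and 7.25 in SNP. All SNP arrays lay above all wtKI arrays, but the WT arrays overlapped both groups. SNP minus wtKI was 0.95 ± 0.41 (limma adjusted p = 0.554), and 0.55 without KO 1 and SNP 1. Igtp, also a regulatory IRG protein, was 8.005 on SNP 1 and 6.23 and 5.91 on SNP 2 and SNP 3, with the wtKI arrays at 6.85, 6.90 and 6.63. Its SNP minus wtKI difference was -0.07 with all arrays and -0.72 ± 0.27 without KO 1 and SNP 1 (limma adjusted p = 0.565). By gene value, the near-identical stretches of Irgm2 and Igtp stood beside differences of opposite sign in the smaller set of arrays. The probe sets of Igtp did not share that sign. With all arrays, 2 of 3 were higher in SNP than in wtKI, the brightest by 1.44. The brightest was 6.72 and 7.92 on SNP 2 and SNP 3, beside 6.90, 7.13 and 6.63 on the wtKI arrays. The contrast with Irgm2 therefore depends on the probe set read.

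Irgm1, which acts in autophagy and restrains the other IRG proteins, differed by -0.28, 0.17, -0.21 and -0.38 in KO minus WT, wtKI minus WT, SNP minus WT and SNP minus wtKI. Leaving out one array turned the first 3 of these, to 0.17 without KO 1, -0.12 without WT 1 and 0.041 without WT 3, and gave -0.18 for the last without wtKI 2. Gbp2, Gbp3 and Gbp6, large GTPases that coat pathogen vacuoles, differed between -0.69 (Gbp6, wtKI minus WT) and 0.72 (Gbp6, SNP minus wtKI, 0.23 without SNP 1). Their groups overlapped in all 4 comparisons. Gbp6 was 5.75 on KO 1 and 7.78 and 7.79 on KO 2 and KO 3, so its KO minus WT difference of -0.33 was carried by KO 1 and was 0.35 without it.

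Among the RNA sensors, Ifih1 (MDA5, which binds long double-stranded RNA) was lowest in SNP. It was 6.91, 7.43 and 7.30 in WT, 7.19, 6.96 and 7.03 in KO, 6.94, 6.90 and 6.21 in wtKI and 5.79, 6.23 and 6.33 in SNP. Every SNP array lay below every WT and KO array, and wtKI 3 lay among the SNP arrays. SNP minus WT was -1.09 ± 0.25 (limma adjusted p = 0.235), and -0.93 ± 0.26 without KO 1 and SNP 1 (limma adjusted p = 0.209). Of its 16 probe sets, 12 were lower in SNP than in WT. The wtKI minus WT difference was -0.53 ± 0.25 (limma adjusted p = 0.9998) and -0.29 without wtKI 3, and KO minus WT was -0.15 ± 0.25.

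Dhx58 (LGP2, a regulator of MDA5 and RIG-I) was highest in wtKI, at 6.46, 7.43 and 6.74, and was 5.16, 5.68 and 5.99 on the SNP arrays. The WT arrays were at 5.73, 5.57 and 6.66 and the KO arrays at 5.90, 6.08 and 6.04. SNP and wtKI did not overlap, and their difference was -1.27 ± 0.34 (limma adjusted p = 0.554), lower by all 5 probe sets. The wtKI minus WT difference was 0.89 ± 0.34 (limma adjusted p = 0.9998), with 5 of 5 probe sets higher. Ddx58 (RIG-I, which binds RNA with a 5′ triphosphate) was 7.60 on SNP 1 and 5.43 and 5.79 on SNP 2 and SNP 3. Its SNP minus wtKI difference was -0.07, lower by 8 of 12 probe sets, and that of Ifih1 was -0.57. All 3 sensors were thus lower in SNP than in wtKI. In SNP minus WT, Ddx58 differed by 0.27 with all arrays and by -0.39 without SNP 1. In wtKI minus WT the sensors differed in sign, with Ddx58 at 0.34.

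Stat2, the subunit that gives the type I complex its activation domain, was higher in both knock-ins than in WT. It was 6.49, 6.06 and 6.57 in WT, 6.22, 6.62 and 6.45 in KO, 6.97, 6.71 and 7.51 in wtKI and 8.55, 7.17 and 6.93 in SNP. No wtKI or SNP array fell within the WT or KO range. SNP minus WT was 1.18 ± 0.38 (limma adjusted p = 0.272), higher by 18 of 19 probe sets, and 0.68 ± 0.26 without KO 1 and SNP 1 (limma adjusted p = 0.295). The wtKI minus WT difference was 0.69 ± 0.38 (limma adjusted p = 0.9998), higher by 15 of 19 probe sets. By the probe set of highest mean alone, it was -0.03.

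Irf7, the factor that amplifies interferon production, was 9.71 on SNP 1 and 6.14 and 5.85 on SNP 2 and SNP 3, and Irf1, induced by both interferon types, was 8.56, 6.33 and 6.59. Irf7 was 7.73 on KO 1, the next highest array. Irf9, the DNA-binding subunit of the type I complex, was higher on every SNP array than on every wtKI array, by 0.41 ± 0.28 (limma adjusted p = 0.621) and by 0.21 without SNP 1. Its probe sets were divided, with 5 of 9 higher, 4 lower and a median difference of 0.11.

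Oasl2, an antiviral member of the OAS family, had the widest range over the arrays among the antiviral effectors, 5.09. It was 5.36, 6.30 and 6.80 in WT, 6.32, 3.84 and 4.55 in KO, 5.42, 5.27 and 4.60 in wtKI and 8.93, 6.89 and 5.82 in SNP. Every SNP array lay above every wtKI array, and WT overlapped both. SNP minus wtKI was 2.12 ± 0.77 (limma adjusted p = 0.554), higher by 5 of 5 probe sets, and 1.26 ± 0.46 without KO 1 and SNP 1 (limma adjusted p = 0.564). KO minus WT was -1.25 ± 0.77 (limma adjusted p = 0.9999), lower by 4 of 5 probe sets, and -1.96 ± 0.46 without KO 1 and SNP 1 (limma adjusted p = 0.267). Without KO 2 it was -0.72, and the probe set of highest mean gave 0.055. On 6 arrays, KO 2, KO 3 and the 3 wtKI arrays among them, the gene was under the 5th percentile of all probe sets of that array, so these sizes are not exact.

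Mx1, a dynamin-like GTPase that blocks influenza viruses, was 5.05, 5.72 and 6.34 in WT, 6.49, 5.83 and 6.02 in KO, 6.04, 5.19 and 5.60 in wtKI and 7.54, 6.84 and 6.02 in SNP. SNP 3 lay within the WT and wtKI ranges. SNP minus wtKI was 1.19 ± 0.42 (limma adjusted p = 0.554) and SNP minus WT 1.10 ± 0.42 (limma adjusted p = 0.299). Without SNP 1 these were 0.82 and 0.73. Its neighbour Mx2 went the other way between the knock-ins: it was 5.95, 6.93 and 6.05 in wtKI and 5.67, 5.35 and 4.86 in SNP. The WT arrays were at 5.47, 4.93 and 5.66 and the KO arrays at 5.25, 7.05 and 5.17. The Mx2 difference was -1.02 ± 0.47 for SNP minus wtKI (limma adjusted p = 0.554) and 0.96 ± 0.47 for wtKI minus WT (limma adjusted p = 0.9998). Mx1 and Mx2 rest on 1 probe set each, with Mx1 under the 5th percentile on WT 1 and wtKI 2 and Mx2 on 4 arrays.

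Usp18, the protease that removes ISG15 and dampens the type I receptor, was 6.56, 6.16 and 6.98 in WT, 5.97, 6.49 and 5.47 in KO, 5.98, 5.83 and 5.91 in wtKI and 8.14, 6.28 and 6.68 in SNP. The wtKI arrays lay below all WT and all SNP arrays. SNP minus wtKI was 1.13 ± 0.43 (limma adjusted p = 0.554), and 0.57 without KO 1 and SNP 1. Ifit2, an RNA-binding inhibitor of translation, was 7.22, 7.06 and 7.88 in WT and 5.72, 6.88 and 7.30 in KO. On the wtKI arrays it was 7.52, 7.71 and 7.19, and on the SNP arrays 7.14, 7.68 and 7.25. Its KO minus WT difference was -0.75 ± 0.37 (limma adjusted p = 0.9999) and -0.30 without KO 1 and SNP 1. Its 2 probe sets differed in direction there, with the brighter at 0.01.

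**Figure D3:**
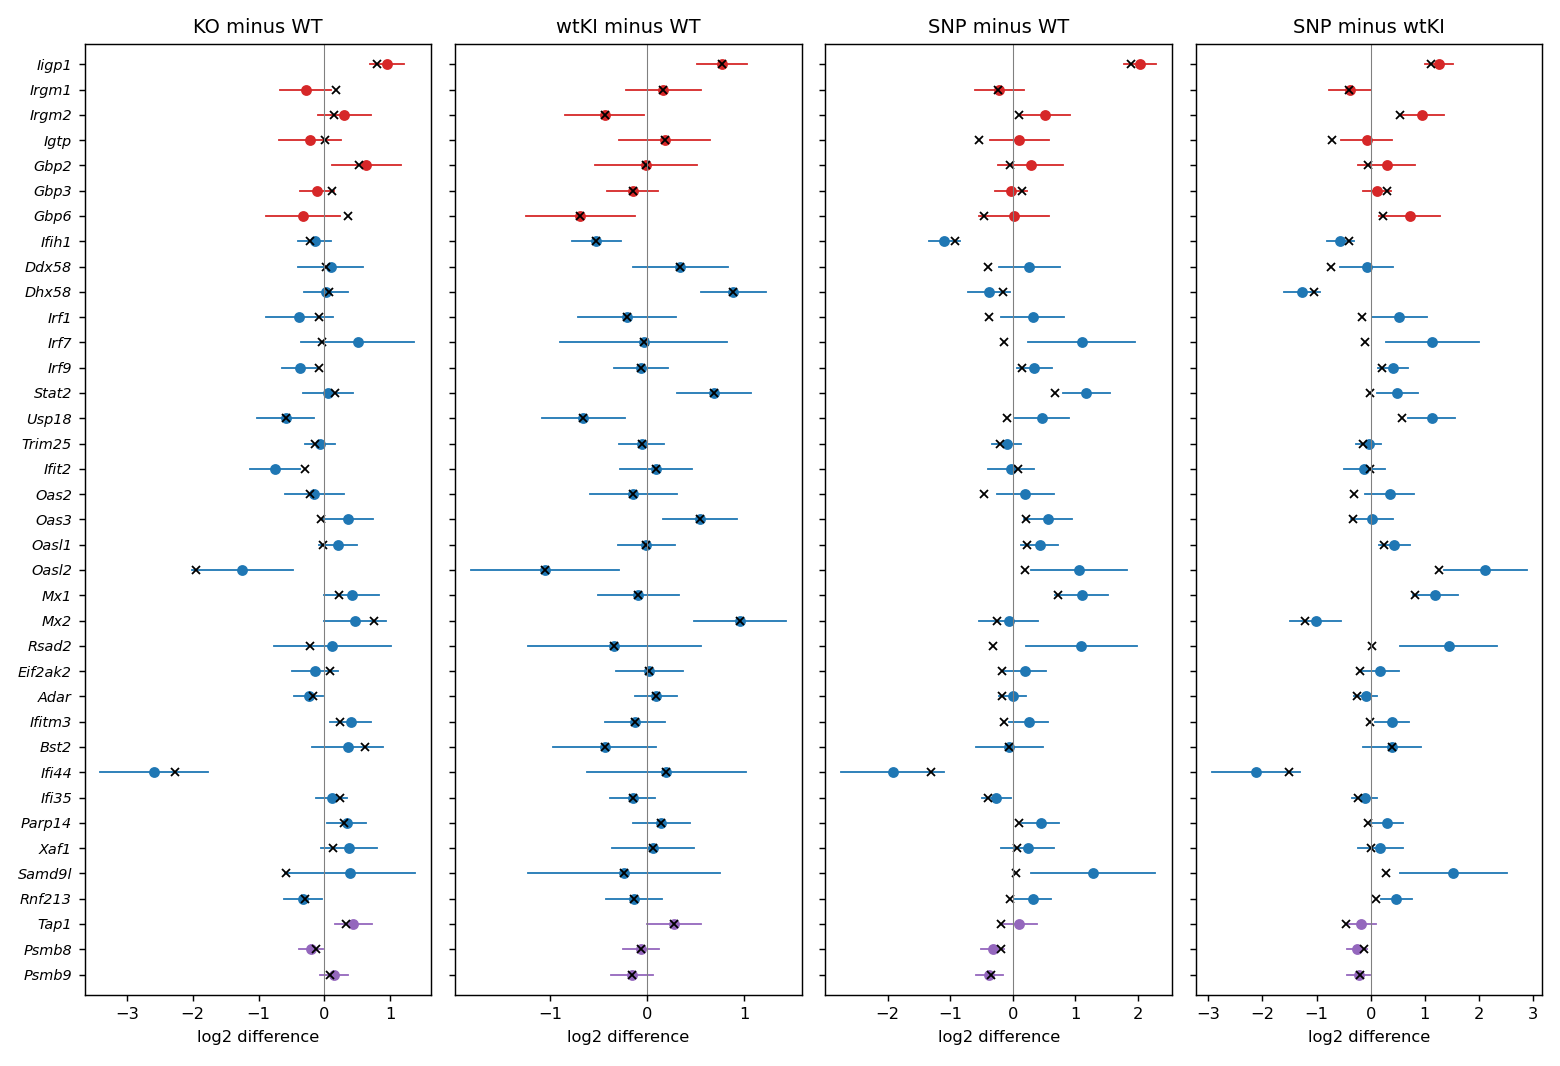
Log2 difference of each of the 37 members (horizontal axis, its range set for each panel) with its standard error, for 4 comparisons. Red marks GTPases, blue type I genes and purple antigen processing genes, and black crosses give the difference without KO 1 and SNP 1: Iigp1 is at 2.03 in SNP minus WT and its cross at 1.89, while Rsad2 is at 1.10 and its cross at -0.31.

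Ifi44, a cytosolic protein induced by type I interferon, had the largest negative difference of the members in KO minus WT, SNP minus WT and SNP minus wtKI. It was 6.11, 5.60 and 8.09 in WT, 3.39, 3.81 and 4.83 in KO, 5.23, 7.33 and 7.82 in wtKI and 3.45, 5.85 and 4.73 in SNP. The KO arrays lay below all WT arrays, and SNP 2 lay within the WT range. KO minus WT was -2.58 ± 0.82 (limma adjusted p = 0.812) and SNP minus WT -1.92 ± 0.82 (limma adjusted p = 0.321), with 3 of 3 probe sets lower in each. SNP minus wtKI was -2.12, lower by 3 of 3 probe sets, and -1.505 without SNP 1, with SNP 2 above wtKI 1. Without WT 3, SNP minus WT was -1.18. It was under the 5th percentile on 6 arrays, all 3 KO arrays among them, so the sizes are not exact.

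Sex ran with Ifi44 and with Dhx58. The female arrays WT 3, wtKI 2 and wtKI 3 had Ifi44 between 7.33 and 8.09, and the 9 male arrays between 3.39 and 6.11. Dhx58 lay between 6.66 and 7.43 on the female arrays and between 5.16 and 6.46 on the male ones. These 2 members of 37 (5.41%) were higher on every female than on every male array, beside 0.324% of all genes. With sex as a term, the Ifi44 difference was -1.82 in KO minus WT and -1.16 in SNP minus WT, and the Dhx58 difference was -0.72 in SNP minus wtKI and 0.62 in wtKI minus WT. KO and SNP held no female array, so sex and genotype are partly confounded here.

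Members whose groups did not overlap are given beside the share of all genes in each comparison. With 37 members, a few genes make up each gap between these shares, and no test of the gaps was run. In KO minus WT, 6 of 37 (16.2%) were apart beside 11.4% of all genes: Iigp1, Ifitm3 and Parp14 higher, and Ifi44, Rnf213 and the RNA editor Adar lower. In wtKI minus WT, 6 (16.2%) were apart beside 12.1%: Iigp1, Mx2, Stat2 and Oas3 higher, and Usp18 and Rsad2 lower. In SNP minus WT, 5 (13.5%) were apart beside 23.6%: Iigp1 and Stat2 higher, and Ifih1, Psmb8 and Psmb9 lower. In SNP minus wtKI, 7 (18.9%) were apart beside 14.2%: Iigp1, Irgm2, Oasl2, Usp18 and Irf9 higher, and Dhx58 and Mx2 lower. Without KO 1 and SNP 1, when fewer arrays have to be apart, 9 (24.3%), 6 (16.2%), 6 (16.2%) and 11 (29.7%) members were apart in the same order, beside 23.9%, 12.1%, 33.4% and 22.5% of all genes.

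By gene value, the antigen processing genes differed between -0.37 (Psmb9, SNP minus WT) and 0.44 (Tap1, KO minus WT). Psmb9, an inducible catalytic subunit of the immunoproteasome, was 10.97, 10.98 and 11.27 on the WT arrays and 10.65, 10.72 and 10.73 on the SNP arrays. Psmb8, its partner subunit, was 10.37, 10.38 and 10.23 on the WT arrays and 9.77, 10.09 and 10.18 on the SNP arrays. All SNP arrays lay below all WT arrays for both, with differences of -0.37 ± 0.21 and -0.32 ± 0.18 (limma adjusted p = 0.400 and 0.412), and 7 of 8 and 7 of 7 probe sets lower. Without SNP 1 the Psmb8 difference was -0.19. Taken singly with all arrays, the Psmb8 probe sets differed by more in SNP minus WT, with a median of -0.64 and the brightest at -0.74. Tap1, a subunit of the peptide transporter, was 6.95, 7.54 and 7.06 in WT, 7.86, 7.57 and 7.44 in KO, 7.22, 7.72 and 7.46 in wtKI and 7.87, 6.88 and 7.12 in SNP. Its KO minus WT difference was 0.44 ± 0.28 (limma adjusted p = 0.9999), with WT 2 inside the KO range.

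SNP 1 was the highest of the 12 arrays for 18 of 27 type I genes (66.7%), 5 of 7 GTPases and 1 of 3 antigen processing genes, and for 19.8% of all genes. Rsad2 (viperin, an antiviral radical SAM enzyme) was 10.34 there and 5.62 and 6.58 on SNP 2 and SNP 3, and Samd9l, a growth-restraining antiviral gene, was 9.80, 5.97 and 6.17. Oas2, which makes the 2-5A signal, was 8.03, 6.41 and 5.66. SNP 1 minus the mean of SNP 2 and SNP 3 had a median of 1.06 over the type I genes (23 of 27 higher) and 1.01 over the GTPases (6 of 7). The members below that mean on SNP 1 included Ifih1 (-0.49), Dhx58 (-0.67), Ifi44 (-1.84) and Gbp3 (-0.53). KO 1 had no such shift, with medians of 0.12 (14 of 27 higher) and -0.69 (3 of 7 higher) against KO 2 and KO 3, although Samd9l was 8.37 there and 5.21 and 5.68 on the other KO arrays.

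Markers of other blood cells also differed on SNP 1. The same array difference was 3.97 for late neutrophil markers (9 of 9 higher), 4.01 for erythroid markers (4 of 4), 2.29 for B lineage markers (5 of 5) and -1.26 for GMP markers (2 of 8 higher). It was 0.14 for monocyte and macrophage markers (6 of 7 higher) and -0.12 for plasmacytoid dendritic cell markers (2 of 5). The lactoferrin gene Ltf was 11.4 on SNP 1 and at most 8.41 elsewhere, and the B cell factor Pax5 was 8.97 and at most 6.25 elsewhere. Their part in the interferon values of SNP 1 was not tested. KO 1 minus the mean of KO 2 and KO 3 was 1.61 for erythroid markers (4 of 4 higher) and 1.05 for late neutrophil markers (5 of 9). It was 0.93 for B lineage markers (3 of 5) and -0.63 for GMP markers (1 of 8), beside 0.12 for type I genes and -0.69 for GTPases. On the KO arrays the late neutrophil medians were -1.02, -1.26 and -2.32 against WT, while the type I medians were -0.03, 0.05 and -0.18.

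**Figure D4:**
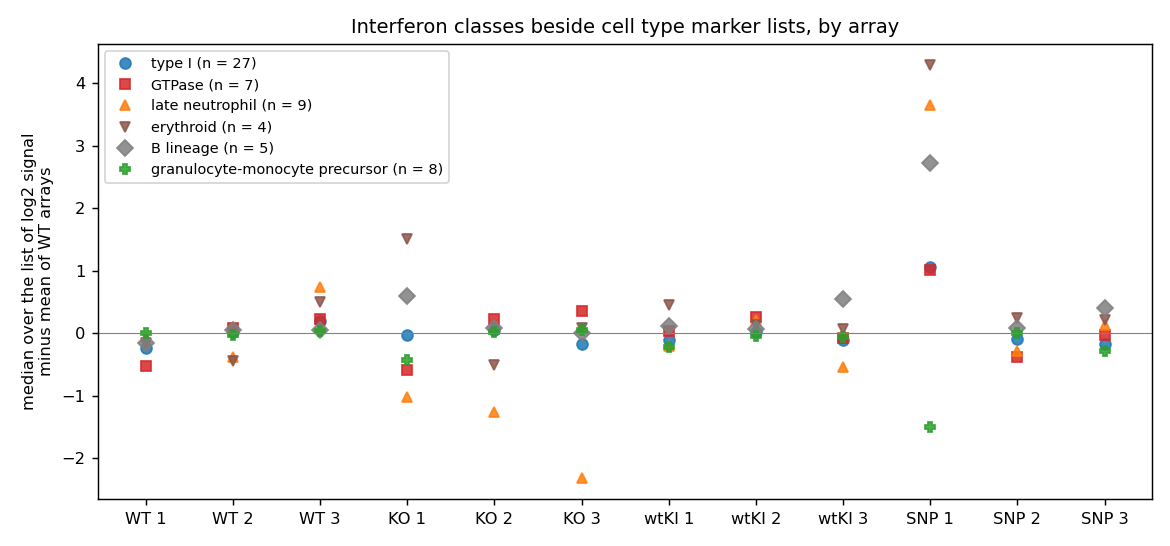
Median log2 signal minus the WT mean (vertical axis) on each array (horizontal axis) for type I genes, GTPases and 4 lists of cell type markers. On SNP 1 the late neutrophil, erythroid and B lineage medians are 3.66, 4.30 and 2.72 and the GMP median is -1.50, beside 1.06 for type I genes and 1.01 for GTPases.

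Of the other genes of the pathway, 59 were measured and none passed in any of the 4 limma comparisons. Under an unadjusted limma p of 0.05 were 6, 3, 13 and 2 of the 59 in KO minus WT, wtKI minus WT, SNP minus WT and SNP minus wtKI. The shares of all genes under it were 4.8%, 3.27%, 14.7% and 8.91%. The 12 receptors, kinases and transcription factors had medians of 0.08, 0.06, -0.03 and -0.11 in that order. Irf8, the factor that favours monocytes and is itself induced by interferon gamma, was lower in KO than in WT by all arrays, with a difference of -0.85 ± 0.26 (limma adjusted p = 0.778). It was 8.80, 8.32 and 9.12 on the WT arrays and 7.69, 7.90 and 8.11 on the KO arrays. The 9 sensing genes had medians of -0.03, -0.14, -0.43 and -0.10. Tlr9, the receptor for CpG DNA, differed by 0.98 ± 0.36 in KO minus WT (limma adjusted p = 0.936) and -1.23 ± 0.36 in SNP minus wtKI (limma adjusted p = 0.554).

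The 4 further GTPases of the GBP family had medians of 0.12, 0.50, 0.73 and 0.23. In SNP minus WT, 3 of the 4 were higher. Gbp5, which rests on 8 probe sets, went the other way, at -0.90 in SNP minus WT and -0.755 in SNP minus wtKI. Without SNP 1 these were -0.28 and -0.13. Gbp8 was 7.15, 8.16 and 6.69 on the WT arrays and 9.52, 8.47 and 8.81 on the SNP arrays, which did not overlap, and differed by 1.60 ± 0.41 (limma adjusted p = 0.255). Gbp2b was 6.48, 5.99 and 6.73 in WT, 6.995, 6.995 and 6.98 in wtKI and 7.71, 7.10 and 7.06 in SNP. It was higher in both knock-ins than on any WT array, by 0.59 ± 0.24 in wtKI (limma adjusted p = 0.9998; 0.39 without WT 2) and 0.89 ± 0.24 in SNP (limma adjusted p = 0.272). The SNP minus WT differences of Gbp8 and Gbp2b held their sign without KO 1 and SNP 1, at 1.31 and 0.68. Gbp8 and Gbp2b rest on 1 probe set each.

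Among 26 further induced genes, the RNA helicase gene Ddx60 had the smallest p of the pathway genes in SNP minus WT. It was 4.93, 4.60 and 5.22 in WT, 6.59, 6.22 and 5.73 in KO, 6.46, 5.91 and 5.51 in wtKI and 8.23, 6.36 and 6.24 in SNP. All WT arrays lay below all other arrays, while KO, wtKI and SNP overlapped. The differences from WT were 1.27, 1.04 and 2.03 ± 0.48 (limma adjusted p = 0.940, 0.9998 and 0.237), and SNP minus WT was 1.39 without KO 1 and SNP 1. The gene was under the 5th percentile of all probe sets on all 3 WT arrays, so these sizes are not exact. Cxcl9, an interferon gamma-induced chemokine, differed by 1.08 ± 0.36 in wtKI minus WT (limma adjusted p = 0.9998) and was under that percentile on WT 3, KO 2 and KO 3. Lgals3bp differed by -0.90 ± 0.32 in SNP minus WT (limma adjusted p = 0.290). The Schlafen genes Slfn8 and Slfn2 differed by 1.23 and 1.41 in SNP minus wtKI (limma adjusted p = 0.554 for both), and by 0.78 and 0.52 without SNP 1. Tapbp, the tapasin that loads peptides on MHC class I, was lower than WT in KO by -1.07 ± 0.38 and in wtKI by -0.93 ± 0.38 (limma adjusted p = 0.917 and 0.9998), in a list of 8 antigen processing genes with medians of -0.18, -0.06, -0.24 and -0.08.

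Members with and without the ISRE letters in their window were both highest on SNP 1 among the SNP arrays. The 13 measured members with the letters had a median of 1.06 on SNP 1, -0.14 on SNP 2 and -0.04 on SNP 3 against WT, and the 16 measured members with a window that lacked them 0.63, -0.08 and -0.16. Over all 396 measured genes with these letters, the SNP medians were 0.02, 0.0035 and -0.07. By gene symbol, 5 members lie on the chromosome of Gfi1, chromosome 5. Oasl2, Oasl1, Oas2 and Oas3 are between 82 and 134 measured genes away from it, and the other is Gbp6. The probe sets labelled Gbp6 are numbered next to those of Gbp3, which lies on chromosome 3. The place given by the symbol may therefore not be that of the signal measured as Gbp6. Iigp1 lies on chromosome 18 and Stat2 on chromosome 10.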

How the data were processed

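The deposited table holds log2 signals of 105661 probe sets on 12 arrays, for which the submitters' processing notes name RMA. Which version and settings of RMA were run, and how probe sets were selected, is not given in the sources used here. Probe sets with 1 gene symbol in the platform annotation (98975; 1703 had several and 4983 none) were used, and 1776 symbols were updated through RefSeq. A gene's value is the median of its probe sets, which gave 14179 genes. Every probe set reached at least 6.14 on some array. The 4 genotypes of 3 arrays were fitted together with limma 3.58.1 (lmFit, eBayes) in R 4.3.3, with Benjamini-Hochberg adjustment over all genes, a two-sided threshold of 0.05 and no covariate; errors are standard errors of that fit. The script was tested on simulated data. "Apart" means that every array of one group lay above every array of the other.

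The members and lists were chosen with earlier results of these data known. In each comparison the 5 members of smallest p, any that passed, members apart and the 4 pathway genes of smallest p are named, and others were picked after their values were seen. Alternatives were median polish, the brightest probe set, centring, quantile normalization, a dim-gene filter, only the groups compared, a variance trend, array weights, a replicate block, sex by Y-linked genes, 3 or more probe sets, and leaving out arrays. For arrays, their number limits the precision.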

Additional observations from a re-analysis of the deposited data

How the results depend on the processing

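No member was called in the main fit of all 12 arrays. The limma calls of that fit over all genes were too few to be stable: 1, 1, 0 and 1 in KO minus WT, wtKI minus WT, SNP minus WT and SNP minus wtKI, and 1 for any difference among the 4 genotypes. In the same order, leaving out each array in turn gave ranges of 0 to 9, 0 to 2, 0 to 2, 0 to 2 and 1 to 3 calls. Without KO 1 and SNP 1 the counts of KO minus WT, wtKI minus WT and the test of any difference were 9, 2 and 5, and array weights gave 131, 5 and 155, with 5 in SNP minus WT. Quantile normalization gave 3 in KO minus WT and 5 in SNP minus WT, and the filter on dim genes 1 in SNP minus WT. Median polish and the brightest probe set each gave 0 in KO minus WT, wtKI minus WT, SNP minus wtKI and the test of any difference, and fitting only the groups compared gave 0 in wtKI minus WT. With the replicate block, or with sex as a term, KO minus WT and SNP minus wtKI gave 0 each. Unadjusted p-values under 0.05 numbered 681, 464, 2085 and 1264 in the 4 comparisons. Replicate numbers did not pair the arrays, since deviations of same-numbered arrays correlated between -0.17 and 0.34 (median 0.016, 18 pairs), and the block left Iigp1 at an adjusted p of 0.148 in SNP minus WT. Calls were counted over all measured members in 119 limma fits, and 6 fits called a member, Iigp1 each time: the 4 given above in SNP minus WT and, with array weights, KO minus WT (0.92, limma adjusted p = 0.0423) and the test of any difference (limma adjusted p = 0.0118). By the brightest probe set alone, 3 named differences changed sign: Ifit2 (0.0069) and Oasl2 (0.055) in KO minus WT and Stat2 (-0.030) in wtKI minus WT. The type I median of KO minus WT was -0.15 without the dimmest 30% of genes, which also leaves out Dhx58. The other 175 recomputed class medians moved by less than their spread between replicates. In the SNP comparisons that spread holds SNP 1 itself, so the count cannot show that the medians do not depend on SNP 1. The type I median of SNP minus WT, 0.27 in the main fit and -0.14 without KO 1 and SNP 1, was among the 175. For named members, 442 recomputed values kept their direction and their side of the threshold. Class medians near 0 still changed sign: in KO minus WT without WT 1, WT 2, KO 1 or KO 2 for type I genes and without KO 1 or WT 3 for GTPases, in SNP minus WT without SNP 1 for both classes and without WT 1 for GTPases, and in SNP minus wtKI without SNP 1 for type I genes. Both medians of wtKI minus WT also changed sign when arrays were left out in turn. They ran from -0.16 to 0.06 for type I genes and from -0.24 to 0.22 for GTPases. The cause of these shifts was not tested. Of the 37 members, 10 were under the 5th percentile of probe sets on at least 1 array, where signal over background limits the size of a difference.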
